A study of Glycyrrhiza uralensis with 24 samples.

Results

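In Glycyrrhiza uralensis, a licorice legume, 226 genes had transcript levels in aerial parts that were lower after 12 h of salt than in controls. These genes did not meet the same threshold in aerial parts at 2 h or in roots at 2 h or 12 h. They are described here across 24 RNA-seq libraries, and they are 226 of the 34445 gene IDs listed. Levels are in TPM (transcripts per 1e6, a share of the library scaled by transcript length). A gene was taken as lowered at a time when all 3 libraries of that time lay below all 3 controls of the organ, the mean fell at least 3-fold after adding 1 TPM, and the control mean was at least 10 TPM. The mirror rule defined a raised gene. Members had to be lowered in aerial parts at 12 h and neither raised nor lowered in aerial parts at 2 h or in roots at 2 h and 12 h. These values chose the members, so the fall at 12 h is a description of the choice and not a finding. The libraries taken at 6 h played no part in the choice.

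The plants were seedlings of 60 days per the labels. Controls (0 h) are labelled as given distilled water, and the salt groups had 150 mM NaCl in MS nutrient solution for 2, 6 or 12 h, a treatment that the protocol calls simulated drought after 1 week of hydroponic growth, so that salt and medium cannot be told apart. Stems and leaves together made the aerial sample and roots the other, with 3 libraries for each organ and time, 8 groups in all. The labels do not say whether a library came from 1 plant or a pool, or whether libraries of a group came from separate plants, so a p-value measures only the spread between these samples. Controls were taken at 0 h only, so hours in salt and time of day cannot be told apart. The control titles follow another pattern than the salt titles, so a batch between them and salt cannot be told apart either. The tables hold bare IDs and no annotation was used here, so no function is given to any ID, and the organ labels were not checked against marker genes.

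In plants generally, NaCl around the roots lowers the water the plant can draw and later loads leaves with sodium. Abscisic acid, a hormone made in both shoots and roots under such stress, closes stomata and turns on protective genes, while leaf growth and cell division slow. Many leaf transcripts also rise and fall with the time of day under the circadian clock. Licorice is used for glycyrrhizin, a triterpenoid, and for flavonoids such as liquiritin, which the title of the study names.

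Listed genes summed to between 43.2% and 49.7% of the TPM scale in the aerial libraries and between 39.1% and 51.1% in the root ones, so the files list part of what was scaled. TPM keep no depth, which is therefore unknown. Among the aerial libraries, control replicate 2 and 2 h replicates 1 and 3 stood apart for many of the members. Relative to the members' own control means, the median member lay at 0.22, -0.94 and 0.24 on the log2 scale in control replicates 1, 2 and 3. It lay at -1.80, -1.14 and -0.34 in 2 h replicates 1, 2 and 3. Over the 6302 genes with an aerial control mean of at least 10 TPM the same medians were -0.02, -0.06 and 0.03 in controls and -0.45, -0.34 and -0.20 at 2 h. Control replicate 2 was the lowest control for 162 of the 226 members, 71.7%, against 42.1% of those 6302 genes. Some counts over all members that rest on these libraries were made again without them, and are given both ways where a value moved by over 1.5 times. The counts of members with every 6 h library below every control, and of those at least 3-fold lower at 6 h than at 2 h, were not. The choice to leave these libraries out for counts at 2 h was made after seeing the data.

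Of the 343 genes lowered in aerial parts at 12 h, 264 were neither raised nor lowered there at 2 h, and 38 of these were set aside because they had changed in roots at 2 h or 12 h. The other 226 are the members. A fall of this kind at 12 h was seen in 5.44% of the 6302 genes with a control mean of at least 10 TPM. The members spanned a wide range of levels, with control means from 10.1 to 2893 TPM and a median of 28.1 TPM. Their median level at 12 h was 4.03 TPM. The fold from control to 12 h ran from 3.005 to 81.8 with a median of 5.25, all on the TPM + 1 scale. Summed over the members, aerial controls held 14082 to 24571 TPM and the 12 h libraries 3363 to 4559 TPM. That was 4.19% ± 1.12 (SD, n = 3) of the listed TPM in controls and 0.841% ± 0.131 at 12 h, a direction that the rule fixed. At 12 h, 15 members had a listed value of 0 in at least 1 library and none in all 3.

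The fall was steepest in Glyur002613s00038311, which stood at 181, 21.4 and 104 TPM in the aerial controls and at 0, 0 and 0.79 TPM at 12 h. At 2 h it stood at 0, 38.2 and 116.5 TPM, and at 6 h at 4.81, 15.1 and 3.22 TPM. Its 2 h libraries spread from the 12 h level to above the middle control, while its 6 h libraries lay below every control. In roots it was listed at 0 in 11 of the 12 libraries. The second steepest was Glyur002055s00039236, at 384, 24.3 and 247 TPM in controls, 1.46, 37.6 and 105.6 at 2 h, 6.49, 15.7 and 7.87 at 6 h, and 8.63, 2.00 and 1.75 at 12 h. In both genes control replicate 2 was the low control, 2 h replicate 1 the low library at 2 h and 6 h replicate 2 the high library at 6 h.

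The most abundant members had another course. Glyur000763s00023742 stood at 3122, 3168 and 2390 TPM in controls, 1495, 1027 and 1242 at 2 h, 1867, 2083 and 1861 at 6 h, and 875, 725 and 772 at 12 h. Its libraries were tight within each group, and its 6 h libraries lay above its 2 h libraries and below the controls. Glyur000665s00020422 stood at 963, 788 and 837 TPM in controls, 1115.5, 853 and 1036 at 2 h, and 277, 233 and 243 at 12 h. Its 6 h libraries held 1034, 496 and 1028 TPM, and all but replicate 2 lay above every control. The 6 h replicate 2 library lay between the controls and 12 h, and all 3 libraries at 12 h lay below every earlier one.

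At the edge of the choice, the folds from control to 12 h nearest above 3 were 3.005 for Glyur003873s00040416 and 3.014 for Glyur000516s00022258. The nearest below it among genes that met every other condition were 2.999 for Glyur002221s00037506 and 2.973 for Glyur000182s00014525. Genes just inside and just outside the 3-fold line thus had nearly equal folds.

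**Figure D1:**
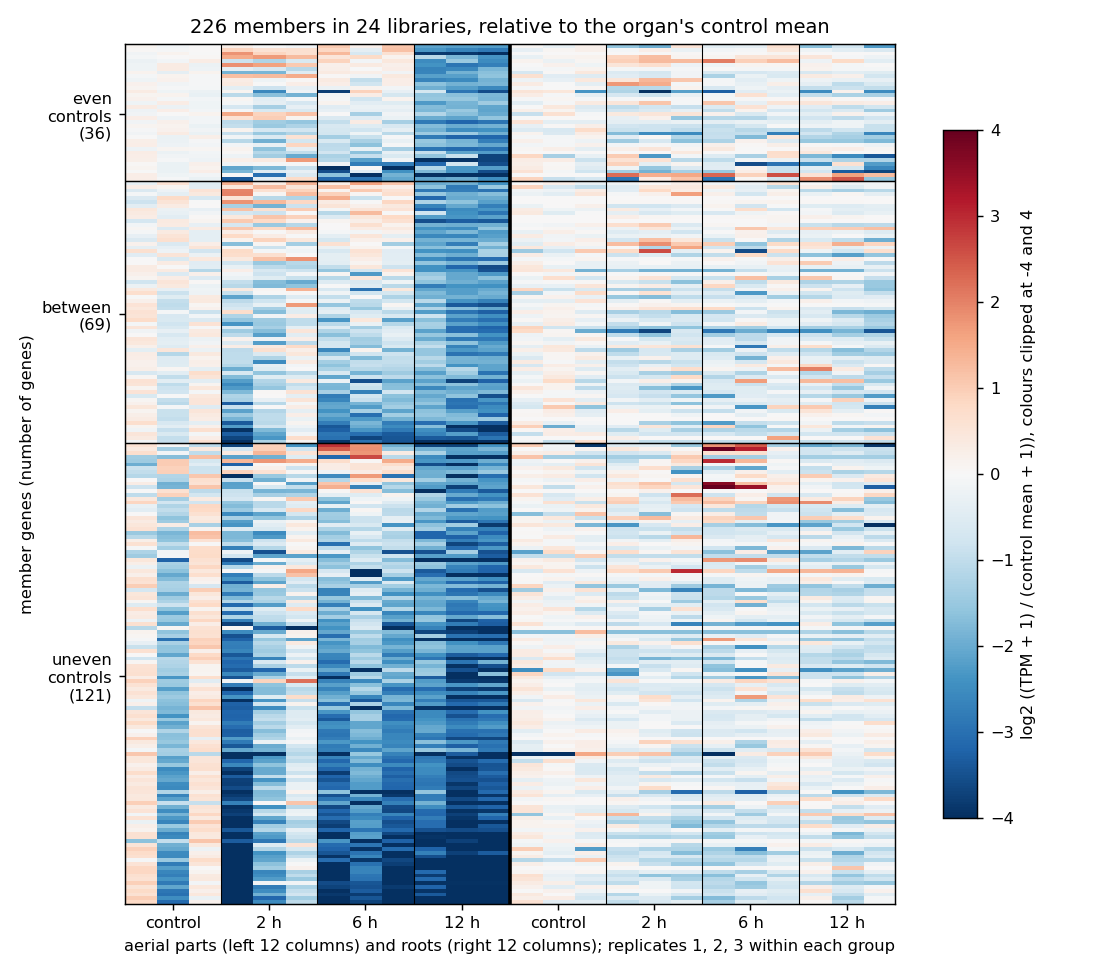
Each row is 1 of the 226 members and each column 1 of 24 libraries, 12 aerial on the left and 12 root on the right. Colour is log2 of (TPM + 1) over (the organ's control mean + 1), clipped at -4 and 4, with rows grouped by how far the 3 aerial controls of the gene lay apart (36, 69 and 121 genes). The lower group is low in control replicate 2 and in 2 h replicate 1 as well as at 6 h and 12 h, and most genes of the upper group are near their control level until 6 h.

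The members differed in the spread of their 3 aerial controls, and they are described in groups by it, which are not taken as kinds of genes. For 121 members the highest control was at least 3-fold the lowest (after adding 1 TPM), called uneven here. For 36 it was under 1.5-fold, called even, and 69 lay between. These groups were drawn after the values were seen and get no test. Uneven controls were found in 15.8% of the 6302 genes at this level and even controls in 44.7%. The grouping rests on control replicate 2: from the other 2 controls alone, 20 members would have uneven controls and 150 even ones. Counts within the groups were not made again without it. The median coefficient of variation over the 3 controls was 56.1% for the members and 24.3% for the 6302 genes.

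Members with even controls lay, in the median, near their control level at 2 h and 6 h. The rule bears on the 2 h values: a member with a 3-fold lower 2 h mean needed a library that overlapped the controls. Uneven controls make such an overlap easier, so the 2 h levels of the groups follow in part from the choice. Their median log2 ratio to the control mean was -0.06, -0.60 and -0.32 in 2 h replicates 1, 2 and 3, and -0.38, -0.44 and -0.24 in the 6 h libraries. At 12 h it was -1.96, -2.11 and -2.30. The 6 h and 12 h medians did not overlap. In 26 of the 36 every 12 h library lay below every 6 h library, where 12.9% of the 6302 genes did the same, though the rule had chosen low 12 h values. In 13 of the 36 the 2 h mean was above the control mean, and in 9 the 6 h mean was.

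Glyur000244s00014824 is a member of this even group. It stood at 185, 158 and 154 TPM in controls, 174, 123 and 157 at 2 h, 162, 95.0 and 182 at 6 h, and 56.9, 57.0 and 46.2 at 12 h. Its libraries overlapped from controls to 6 h, and all 3 at 12 h were lower than every other. In roots it never passed 0.12 TPM. Glyur000279s00013259, also with even controls, stood at 75.1, 105 and 71.0 TPM in controls and at 298, 260 and 173 at 2 h. The 2 h mean was 1.53 higher on the log2 scale, just short of the 3-fold line, and every 2 h library lay above every control. It stood at 96.5, 107 and 97.0 at 6 h and at 15.2, 10.1 and 11.8 at 12 h. A like 2 h ratio was found in Glyur000653s00025435, whose controls were uneven, at 3.59, 23.6 and 6.52 TPM in controls, 29.9, 40.2 and 33.1 at 2 h, 18.8, 11.6 and 32.9 at 6 h, and 1.46, 1.55 and 2.18 at 12 h. Its 2 h libraries lay above every control, at a log2 ratio of 1.54. In all, 41 of the 226 had a 2 h mean above the control mean, 18.1%, against 29.6% of the 6302 genes. In 15, 6.64%, every 2 h library lay above every control, against 8.41%, and in 23 without control replicate 2. The rule used these libraries, so nothing is read from the shares.

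Members with uneven controls were low in some libraries of every group, a control among them. Their median log2 ratio to the control mean was 0.38, -1.61 and 0.46 in control replicates 1, 2 and 3. It was -3.16, -1.42 and -0.50 in 2 h replicates 1, 2 and 3. At 6 h it was -2.49, -1.62 and -2.46, and at 12 h -2.50, -3.45 and -3.19. The 2 h replicate 1 library was thus as low as the 12 h libraries, and 2 h replicate 3 lay well above control replicate 2. Control replicate 2 was the lowest control for 107 of these 121 genes. For 96 of them 2 h replicate 1 was the lowest and replicate 3 the highest library at 2 h, against 7 of the 36 with even controls and 33.0% of the 6302 genes. For 84 of them 6 h replicate 2 was the highest at 6 h, and for 96 of them 12 h replicate 1 was the highest at 12 h. Among the 6302 genes these orders were also common, at 46.8% and 45.9%. In whole organs, fewer cells of a type and less RNA per cell cannot be told apart.

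Glyur001908s00030720, the most abundant member whose mean fell at every step, shows this course. It stood at 750, 166 and 570 TPM in controls, 79.7, 184 and 290 at 2 h, 121, 161 and 107 at 6 h, and 140, 111 and 113 at 12 h. Control replicate 2 lay within the range of the 2 h libraries and just above 6 h replicate 2. Glyur000416s00028508, the next of these by control level, had even controls at 600, 418 and 462 TPM, and stood at 509, 221 and 248 at 2 h, 288, 158 and 392 at 6 h, and 255, 113 and 104 at 12 h. It was absent or nearly so from roots, with at most 0.64 TPM. Means fell at each step from control to 2, 6 and 12 h in 119 of the 226, 52.7%, against 9.39% of the 6302 genes, a share that the choice of low 12 h values bears on. Among the 119 were 85 of the 121 with uneven controls and 7 of the 36 with even ones.

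**Figure D2:**
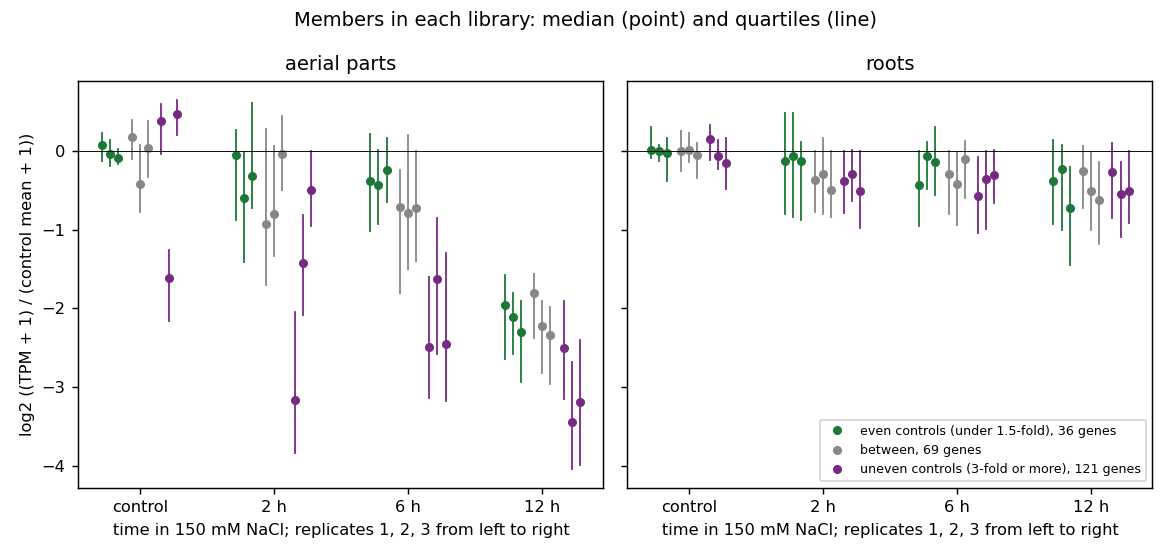
Median (point) and quartiles (line) over members of log2 of (TPM + 1) over (the organ's control mean + 1), for each library, with replicates 1, 2 and 3 from left to right in each group and time in 150 mM NaCl along the axis. In aerial parts the 36 genes with even controls stay between -0.60 and 0.07 until 6 h and reach -1.96 to -2.30 at 12 h, while the 121 with uneven controls are spread from -3.16 to -0.50 at 2 h and include a control at -1.61. Root medians lie between -0.72 and 0.15 for all 3 groups of genes.

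The label of a late fall rests partly on these libraries. By their means, 32 of the 226 were already at least 3-fold lower at 2 h, 14.2% against 6.49% of the 6302 genes. In all 32 at least 1 library overlapped the controls, as the rule required of a member with such a mean. The count by means was 71 when control replicate 2 was left out, and leaving out replicate 1 or replicate 3 of the 2 h group gave 18 or 90. The share of the 6302 genes was not counted again for these. The lowest 2 h ratios were those of Glyur001495s00036168 and Glyur000004s00000424, at -2.54 and -2.52 on the log2 scale. Glyur001495s00036168 stood at 336, 60.7 and 74.6 TPM in controls, 0, 7.74 and 70.5 at 2 h, 4.83, 53.7 and 23.5 at 6 h, and 8.04, 14.7 and 0 at 12 h. Its 2 h replicate 3 lay above 1 control, and in roots its libraries ranged from 0 to 75.7 TPM. Glyur000004s00000424 stood at 178, 15.0 and 73.0 TPM in controls, 1.21, 9.21 and 33.4 at 2 h, 4.01, 7.43 and 1.32 at 6 h, and 4.15, 0 and 1.14 at 12 h. Only its 2 h replicate 3 lay above the lowest control. Without control replicate 2 the rule took 358 genes, 147 of the 226 among them. Of the 79 that left, 63 then counted as lowered at 2 h, 58 of them with uneven controls. Without 2 h replicate 3 it took 180 genes, with 46 members then counted as lowered at 2 h. Without 12 h replicate 1 it took 410 genes, 222 of the 226 among them.

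To see how the libraries differed in the 12 h fall, the rule was run without 1 aerial control or 1 aerial 12 h library, and the left-out library was then read against the other group for the genes so chosen. That other group had chosen the genes, so shares above those of all genes follow in part from the choice and are no support for the fall. Of 237 genes chosen without 12 h replicate 2, 84.4% lay in that library at least 3-fold below the control mean and below every control, and of 231 chosen without replicate 3, 85.7% did. Among all genes at the same control level these shares were 9.58% and 10.9%. For 12 h replicate 1 the share was 42.9% of 410 genes, against 5.57%. For control replicates 1 and 3 the shares at least 3-fold above the 12 h mean and above every 12 h library were 78.0% and 72.5%, against 8.13% and 8.22%. For control replicate 2 it was 23.5% of 358 genes, against 4.17%, with a median log2 fold of 0.75 where control replicate 1 had 2.30. Of the 6 libraries, control replicate 2 had the lowest share.

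By the group means, the 6 h libraries, unused by the rule, gave a median between those of 2 h and 12 h. That order rested on 2 h replicate 3. The median log2 ratio of the 2 h mean to the control mean was -0.90, and that of the 12 h mean -2.39. The median log2 ratio of the 6 h mean to the control mean was -1.22 over the members and -0.18 over the 6302 genes. Medians by library were -1.62, -1.07 and -1.36 in 6 h replicates 1, 2 and 3. All lay within the range of the 2 h libraries, from -1.8 to -0.34. Without 2 h replicate 3 the 2 h median was -1.29, below that of 6 h, and without 2 h replicate 1 it was -0.65. By the 3-fold rule 57 of the 226 were lowered at 6 h, 25.2%, and none was raised, where 1.86% of the 6302 genes were lowered. The controls in this ratio were those that chose the members for high control levels, so the share is not read further. Every 6 h library lay below every control in 78 members, 34.5%, against 13.8% of the 6302 genes. Over the 6302 genes, the median was -0.17 in 6 h replicate 2, nearer to the controls than the -0.24 and -0.27 of replicates 1 and 3, and without replicate 2 96 members were lowered at 6 h. Without control replicate 2 it was 107. The share of the 6302 genes was not counted again without these libraries, so nothing is read from the 96 and the 107.

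The 57 lowered at 6 h and the other 169 were split by the 6 h fall itself, so a larger 6 h share among the 57 is built in. Among the 57, the 6 h fall made up a median of 86.2% of the 12 h fall on the log2 scale, and 1 had a 2 h mean above the control mean. Among the 169 the median share was 36.0%, and 40 had a 2 h mean above the control mean. Of the 57, 44 had uneven controls and 2 had even ones. These shares have the same controls in both parts and are a description only. By the means, 28 members were at least 3-fold lower at 6 h than at 2 h, 12.4% against 1.56% of the 6302 genes. At 12 h 80 were at least 3-fold lower than at 6 h, 35.4% against 4.14%, where the rule had chosen low 12 h values.

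The lowest ratios of 6 h to control, -4.32 and -4.09 on the log2 scale, were those of Glyur002055s00039236 and Glyur000004s00000424. The highest were those of Glyur000047s00003966 and Glyur000169s00018362, at 1.89 and 1.63. Glyur000169s00018362 stood at 29.2, 8.22 and 30.7 TPM in aerial controls, 13.3, 45.3 and 12.7 at 2 h, 125, 84.0 and 7.21 at 6 h, and 5.40, 4.51 and 5.71 at 12 h. In roots at 6 h it stood at 159, 81.3 and 9.63 TPM, where controls held 7.66 to 9.23 TPM, and there it counted as raised at 6 h. Glyur000047s00003966 stood at 96.2, 44.7 and 2.39 TPM in aerial parts at 6 h and at 49.6, 78.1 and 4.65 in roots. For both genes replicates 1 and 2 were high and replicate 3 low in both organs. The titles give the aerial and root libraries of 1 salt group the same numbers. Among the 167 members with a mean of at least 1 TPM in both organs at 6 h, the same replicate was highest in both organs for 74, 44.3%. For the 4772 genes that also had control means of at least 10 TPM in both organs it was 56.1%.

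In roots the members ranged from absent to abundant, and the rule could not see a fall in many of them. The root control mean was under 10 TPM for 119 of the 226, and such a gene could not count as lowered in roots whatever it did. The other 107 had root control means of 10.2 to 1368 TPM. At 12 h, 90 of these 107 had a root mean below the root control mean, 84.1%, against 68.2% of the 6456 genes with a root control mean of at least 10 TPM. The median log2 ratio was -0.69 for the 107 and -0.32 for the 6456. In 41 every root 12 h library lay below every root control, 38.3%, against 30.0% of all genes with a root control mean of at least 10 TPM. At least 2-fold lower means were found in 30, 28.0% against 19.4%, and 4 were at least 3-fold lower with overlapping libraries. Root libraries entered the rule, so nothing is read from these shares. The difference between organs in this response set the members, so it was not tested.

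Glyur000207s00015900 had the highest root level of the members. It stood at 2306, 1452 and 347 TPM in root controls, 197, 106 and 874 at 2 h, 186, 345 and 222 at 6 h, and 248, 378 and 125 at 12 h. Root control replicate 3 lay below 2 h replicate 3 and 12 h replicate 2, which kept the gene out of those lowered in roots at 2 h and 12 h, while it counted as lowered in roots at 6 h. In aerial parts it stood at 198, 173 and 279 TPM in controls and 47.9, 25.6 and 25.02 at 12 h. Glyur002188s00037691 was next, with 389 ± 43.1 TPM in root controls, 258 ± 53.9 at 2 h, 194 ± 9.24 at 6 h and 196 ± 66.9 at 12 h (SD, n = 3). Its aerial values were 29.9, 19.98 and 71.3 TPM in controls and 17.5, 4.27 and 7.72 at 12 h. Both genes were higher in roots than in aerial parts in the controls, as were 51 of the 226, 22.6%. The share over all genes was not counted, so nothing is read from the 51. At 6 h in roots, 3 of the 226 counted as lowered, 1.33%, and 2 as raised, 0.885%. Among genes at 10 TPM or more in roots 1.56% and 2.59% did. These shares are not like for like, since 119 members had root controls under that level and could not count as lowered.

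**Figure D3:**
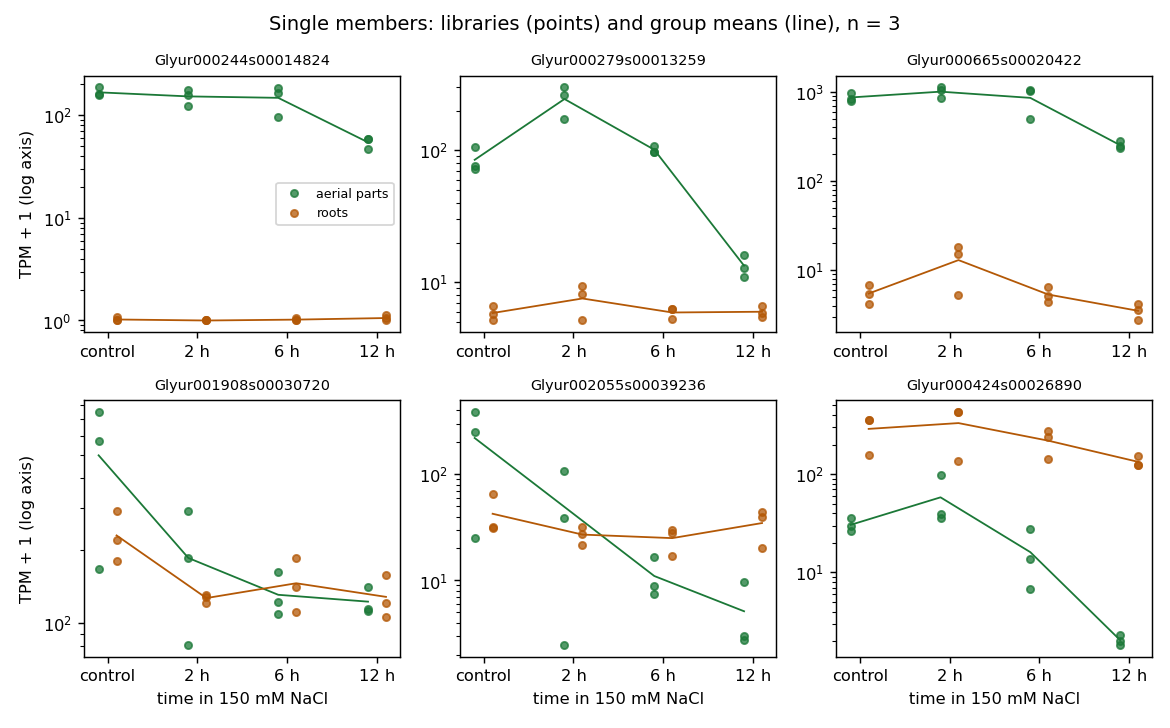
TPM + 1 on a log axis for 6 members, by time in 150 mM NaCl, with a point for each library (n = 3 per group) and a line through the group means, green for aerial parts and brown for roots. The upper row shows genes whose aerial libraries at 12 h lie below every earlier aerial library, and the lower row shows 2 genes with a low control (166 and 24.3 TPM) and a gene that is higher in roots in every group.

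The comparison of organs at 6 h sets against each other libraries that did not choose the members, while the libraries of the other times, which did, share in the estimate of the spread. log2(TPM + 1) was compared between aerial parts and roots at 6 h with limma over 16718 genes, with calls made where the p adjusted by Benjamini-Hochberg was below 0.05. All 226 members were tested. The rule asked for 10 TPM in aerial controls and set no such level in roots, so members are also set beside the genes of that level. Of the 226, 77 were higher in aerial parts at 6 h, 34.1%, and 40 were higher in roots, 17.7%. The background of calls was 12.3% and 16.3% of all genes tested, and 22.7% and 15.6% of the 6302 genes with that aerial control level. The share higher in roots was near the background. The rule also set aside genes that changed in roots, where a gene with low root controls could not count as lowered. The share higher in aerial parts can thus follow in part from the choice, and is not read further. With only the 6 libraries at 6 h in the fit, 72 and 39 members were called. In the fit of all libraries the other 109 members were not called, which does not show that the organs held equal levels. That fit did not use the title numbers that the organs share. With these as a fixed replicate block on the salt libraries alone, 80 and 49 members were called, and as a random block 83 and 52.

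Among the 77 members higher in aerial parts, the difference had a median of 3.86 on the log2 scale, and in 74 every aerial library at 6 h lay above every root library. Among the 40 higher in roots it had a median of 2.08, and the libraries did not overlap in 36. The same share over all called genes was not counted, so nothing is read from the 74 and the 36. Leaving out 1 library at 6 h moved the count of members higher in aerial parts to between 71 and 75. The count of members higher in roots fell to 19 and 18 without aerial replicates 1 and 3, and to 25 and 24 without root replicates 1 and 3. In 35 of the 226, 15.5%, all 12 root libraries were under 1 TPM, against 2.81% of the 6302 genes, a comparison that was not tested because root controls, 2 h and 12 h entered the rule.

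The lowest p among members higher in aerial parts belonged to Glyur000763s00023742. At 6 h it stood at 1867, 2083 and 1861 TPM in aerial parts and 0.10, 0.39 and 1.21 TPM in roots (log2 difference 10.33, SE 0.24, limma adjusted p = 3.49e-16). Glyur000244s00014824 followed, at 162, 95.0 and 182 TPM against 0, 0 and 0.06 in roots (log2 difference 7.12, SE 0.21, limma adjusted p = 6.71e-15). No library of one organ came near those of the other. Higher in roots were Glyur000424s00026890, at 12.8, 5.82 and 26.6 TPM in aerial parts and 141, 275 and 238 in roots (log2 difference -3.94, SE 0.50, limma adjusted p = 4.54e-06), and Glyur000905s00030404, at 3.20, 7.22 and 2.88 TPM against 76.1, 164 and 49.6 (log2 difference -4.08, SE 0.54, limma adjusted p = 8.76e-06). In aerial parts Glyur000424s00026890 stood at 34.5, 28.7 and 25.2 TPM in controls, 35.1, 38.1 and 98.0 at 2 h and 0.82, 1.00 and 1.32 at 12 h. In roots it stood at 151, 123 and 124 TPM at 12 h and at 353, 353 and 157 in controls, so that levels at 12 h lay below all root controls by less than 3-fold.

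Calls in the groups by control spread are a description only. Shares over all genes with even or uneven controls were not made, and the groups rest on control replicate 2. Of the 36 members with even controls, 25 were higher in aerial parts at 6 h and 2 higher in roots. Of the 69 between, 34 and 6 were. Of the 121 with uneven controls, 18 were higher in aerial parts and 32 in roots. Median levels at 6 h were 38.7 TPM in aerial parts and 3.32 TPM in roots for the even group, and 7.40 TPM and 14.1 TPM for the uneven group. In controls the uneven group had medians of 25.9 TPM in aerial parts and 14.6 TPM in roots. The even group had 51.0 TPM and 4.04 TPM there, so the groups differed in level before salt.

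**Figure D4:**
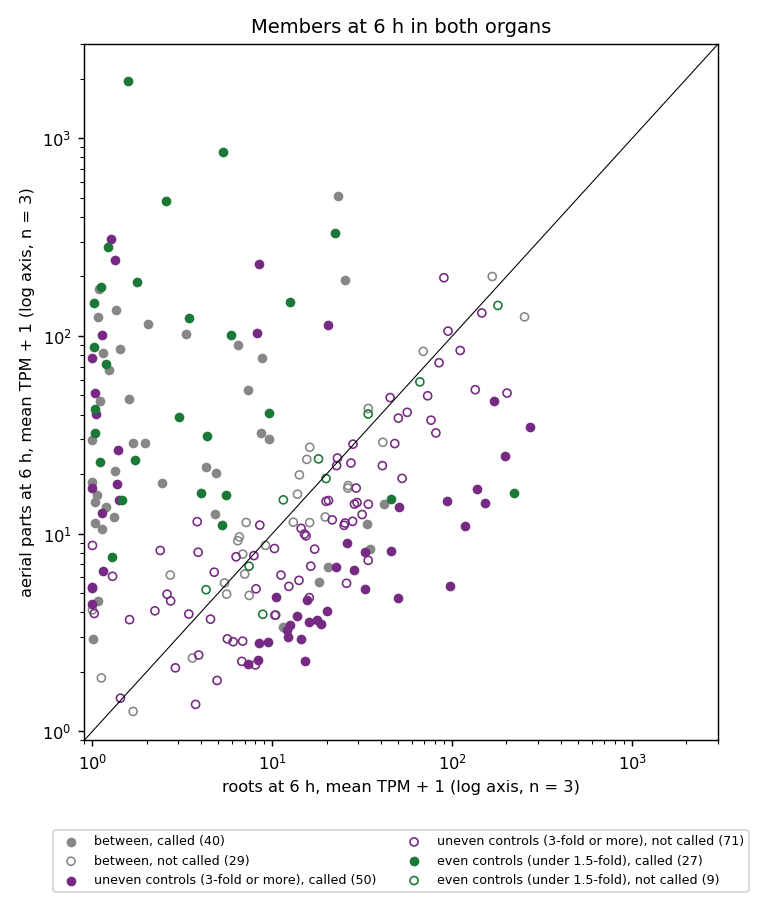
Mean TPM + 1 at 6 h in roots (horizontal) and aerial parts (vertical) for the 226 members, both on log axes, with the line of equal levels (n = 3 per organ). Filled points were called by limma (77 above the line, 40 below), open points were not. Most filled points of the even group (green) are above the line, with 25 called there and 2 below, and of the uneven group (purple) 18 were called above and 32 below.

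For the 12 h comparison with controls that the rule used, the same test over 15744 genes in aerial parts called 69 of the 226 lower, where 1.56% of all genes tested were called lower, and nothing is read from this. Without control replicate 2 it called 142 members, and with 1 other library of the 2 groups left out 32 to 45.

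Some members neighbour each other in the ID order. In 10 pairs of neighbouring listed IDs with the same first number both genes were members, which took in 19 of the 226, and the files do not say whether the ID order follows the genome. How often other genes pair in this way was not counted. In 7 of the 10 pairs both genes had the same state at 6 h by the 3-fold rule. Of all members 74.8% were not lowered at 6 h, so like states are common in any pairs and nothing is read from the 7. For Glyur001643s00028423 and Glyur001643s00028424, chosen here after their values were seen, mean levels were 271 and 189 TPM in aerial controls, 21.8 and 10.7 at 6 h, and 13.6 and 5.78 at 12 h. Near-identical neighbours could share reads, which was not tested. Of the 226 members 12 had several rows in the files, 5.31%, against 7.99% of all IDs. In Glyur000069s00004050, the most abundant of these, 1 row of 3 held nearly all of the level, at 512, 123 and 399.5 TPM in controls and 79.6, 68.2 and 80.6 at 12 h, and the others stayed at 1.09 TPM or less. In Glyur000516s00022258 the second of 4 rows held 31.2, 49.6 and 32.5 TPM in controls and 10.4, 8.52 and 1.59 at 12 h, while the third row held 6.99, 19.8 and 10.9 TPM and then 5.85, 0 and 12.4 TPM, with overlap.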

How the data were processed

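The authors deposited 1 table per library with gene IDs and TPM, per the file headers. Tools listed in the submitters' processing notes are edgeR, DESeq2, RSEM, StringTie, HISAT2 and fastp, with neither version nor role, and the genome build and gene models are likewise not stated there. Rows of 1 ID were summed (38135 rows, 34445 IDs), and no 2 libraries were identical. Since TPM are not counts, two-sided limma tests (version 3.58.1, R 4.3.3, mean-variance trend) were run on log2(TPM + 1), keeping genes whose mean in the fitted libraries reached 0.5 TPM. Folds use TPM + 1, which understates changes of low genes. All 24 libraries entered the organ comparison and the 12 aerial ones the 12 h comparison. Tables were made in Python 3.11.15. Both limma comparisons were run on simulated data, with residuals shuffled over libraries for each gene. Such data keep neither the libraries that stood apart nor the shared numbers of the organs, so they do not show how the tests behave with these.

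The members, lists and rules were chosen with earlier results of these data known. IDs named are at most 2 per direction for the steepest fall, highest levels, edge of the rule, extremes at 2 h and 6 h, organ test and several rows.

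Salt libraries of both organs share numbers in their titles. Residuals of same-numbered libraries correlated at 0.20 to 0.57 over 16718 genes in all 9 pairs, so the numbers were tried as a replicate block. Other alternatives were pseudocounts, filters, scalings, thresholds and left-out libraries.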

Additional observations from a re-analysis of the deposited data

How the results depend on the processing

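The number of members was 146 with a level minimum of 20 TPM, and 180 to 410 with 1 library left out. With the other thresholds, constants, scalings and the largest row per ID it stayed within 1.5 times of 226, between 156 and 321, and the genes were partly others: 174 of the 226 remained at a 2-fold minimum. With 1 library left out, members lowered at 6 h numbered 44 to 107 and their median log2 ratio of 6 h to control was -1.503 to -0.985. In the organ comparison at 6 h, 4792 genes were called, 3059 with only the 6 libraries at 6 h in the fit and 3854 to 4738 with 1 library left out. Members higher in aerial parts numbered 71 to 75 and members higher in roots 18 to 37 with 1 library left out. With the replicate block, fixed and fitted on the salt libraries alone, they numbered 80 and 49, and as a random block 83 and 52, within 1.5 times of the counts without it. The calls of the 4 members named in that comparison held under all 15 alternatives. Median-of-ratios scaling moved the median of all genes in that comparison from -0.20 to -0.02 and scaling to the listed total moved it to -0.30. Called genes higher in aerial parts were 2411 against 2108 higher in roots with the former, 1937 against 3287 with the latter and 2063 against 2729 as deposited. For the 12 h comparison the count of 434 was 244 without a filter, 874 with all 24 libraries in the fit and 79 to 852 with 1 library left out. Its calls split into 189 higher and 245 lower as deposited and 246 higher and 196 lower with libraries scaled to the listed total. The members called there were 172 with all 24 libraries and 32 to 142 with 1 left out. Depth is unknown, so counting error at low TPM is not given.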
